A study of Mus musculus with 12 samples.

Results

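The genes examined here were 10 immediate early and stress response genes, namely Fos, Fosb, Jun, Junb, Jund, Egr1, Atf3, Ier2, Zfp36 and Dusp1, out of 24516 gene symbols in the deposited transcript table. They were taken by symbol from rows whose transcript matched or shared exons with a reference transcript, and the reads were summed per gene. All 10 were found, as 11 transcripts that each matched a reference transcript exactly. Total RNA had been sequenced from whole testes of 12 wild-type C57BL/6 mice. Groups of 3 mice had reached 3, 6, 12 or 18 months, which are written here as 3M, 6M, 12M or 18M. The study asked which testicular transcripts change with age. No genetic change or treatment separated the groups, each library came from its own mouse, and the labels did not give litters. Ribosomal RNA had been removed and the libraries did not record strand. The libraries held 50924104 to 71803379 estimated reads each, with a median of 56236682.

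Immediate early genes are transcribed within minutes of a growth factor, hormone, heat or injury signal, from promoters that are already poised, without new protein synthesis. Their mRNAs and proteins are short-lived. Fos and Jun family proteins pair through leucine zippers into AP-1, which binds DNA and regulates later genes, while Zfp36 and Dusp1 shut the response down, by destabilizing mRNAs and by dephosphorylating MAP kinases. In the testis, AP-1 and EGR proteins are known from Sertoli and Leydig cells, and JunD is required in male mice for normal sperm production. The same genes also respond to tissue handling and dissociation, and no measure of handling was at hand here.

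A pair of promoters and a segment of Fosb are shown because the genes differ in the elements beside their starts and because the 2 Fosb transcripts of the table differ by that segment. The promoters were taken from RefSeq (GRCm38.p6, the same build as mm10), each spanning 300 bases around the start, and 8 of the 10 genes are covered here, Egr1 and Ier2 being the others. Capitals mark matches on either strand to TATAAA, the cyclic AMP response element TGACGTCA, the AP-1 site TGANTCA, the core of the serum response element known as the CArG box, the EGR site GCGNGGGCG, and CCAAT.
Fos (chr12:85473640-85473939, plus strand): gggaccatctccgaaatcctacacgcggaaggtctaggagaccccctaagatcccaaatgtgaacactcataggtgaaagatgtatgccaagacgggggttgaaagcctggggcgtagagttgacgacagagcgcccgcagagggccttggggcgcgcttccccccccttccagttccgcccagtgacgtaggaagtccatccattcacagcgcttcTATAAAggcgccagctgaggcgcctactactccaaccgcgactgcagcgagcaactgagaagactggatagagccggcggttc
Dusp1 (chr17:26508423-26508722, minus strand): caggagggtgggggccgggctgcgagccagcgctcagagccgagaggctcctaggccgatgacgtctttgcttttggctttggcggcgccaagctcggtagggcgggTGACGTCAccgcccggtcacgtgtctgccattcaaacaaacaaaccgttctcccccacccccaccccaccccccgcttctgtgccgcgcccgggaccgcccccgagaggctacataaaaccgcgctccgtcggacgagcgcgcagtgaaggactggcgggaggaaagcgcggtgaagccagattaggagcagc
In Fos the capitals are the TATA box, at positions -33 to -28 from the start, and in Dusp1 the full cyclic AMP response element, at positions -143 to -136. TATAAA was found in 2 of the 8 promoters, those of Fos and Junb, and in 14.2% of all 27025 promoters of this length. The match in Junb lay at positions 1 to 6, at the annotated start and not upstream of it as in Fos. TGACGTCA was found in Dusp1 and in 1.88% of all promoters. Its first bases, TGACG, were found in Fos, Fosb, Junb, Atf3 and Dusp1, against 21.0% of all promoters, and include the matches inside TGACGTCA. The CArG box was matched in Zfp36 and in 1.57% of all promoters, the EGR site in Fosb and Zfp36 and in 5.55%, and CCAAT in Jun, Junb and Atf3 and in 37.9%. The CCAAT match in Atf3 lay at positions 6 to 10, past the annotated start. The sequence given for Jund, the one of the 8 with no match to any of these motifs, had a GC content of 46.7%, against 58.7% to 68.3% in the other 7 and a median of 52.7% over all promoters, and whether it holds the start used in testis was not tested. TGANTCA was matched in none of the 8 and in 7.93% of all promoters. These are matches of letters within 300 bases, not measured binding sites. Sequence outside these 300 bases was not searched, so a gene without a match here can still hold the motif farther away.

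The Fosb segment lies on chromosome 7 in the exon that holds the end of the coding region. Its 140 bases are in capitals below, with 30 bases on either side in lower case, read from the GENCODE transcript that contains it.
Fosb segment (chr7:19305007-19305146, mm10, minus strand): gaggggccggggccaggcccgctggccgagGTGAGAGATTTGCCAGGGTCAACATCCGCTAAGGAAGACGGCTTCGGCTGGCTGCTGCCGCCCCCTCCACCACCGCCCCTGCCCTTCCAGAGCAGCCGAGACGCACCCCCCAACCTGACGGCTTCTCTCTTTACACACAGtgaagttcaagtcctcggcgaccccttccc
The segment begins with GT and ends with AG, and lies within the coding region of that transcript. The transcript without it is the one known to encode ΔFosB, a shortened and longer-lived form of the protein that lacks the carboxyl end.

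On mm10, Fos (NM_010234) lies at chr12:85473901-85477270 in 4 exons and Fosb at chr7:19302696-19310045 in 4 or 5 exons. Jun (NM_010591, chr4:95049036-95052222), Junb (NM_008416, chr8:84976909-84978748) and Jund (NM_010592, chr8:70697739-70700616) each consist of 1 exon, as does Ier2 (NM_010499, chr8:84661331-84662852). Egr1 (NM_007913, chr18:34861207-34864956) and Zfp36 (NM_011756, chr7:28376784-28379228) have 2 exons, and Atf3 (NM_007498, chr1:191170297-191183333) and Dusp1 (NM_013642, chr17:26505591-26508472) have 4. All 10 are annotated as protein-coding.

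Levels were compared between genes as FPKM, which is scaled by transcript length, and Jund was far above the rest. Its mean over the 12 libraries was 23.4 ± 3.12 FPKM (SD, n = 12), which placed it at percentile 86.6 of all gene symbols. Dusp1, the MAP kinase phosphatase, followed at 5.76 ± 0.536 FPKM (percentile 67.7). The founding AP-1 gene Jun had 2.37 ± 0.243 FPKM, and Zfp36, which encodes the mRNA decay factor tristetraprolin, had 2.06 ± 0.191 FPKM. Ier2 (1.74 ± 0.221), Junb (1.63 ± 0.269) and Egr1 (1.47 ± 0.354 FPKM) lay close together near the middle of all genes, at percentiles 51.3, 50.5 and 49.5. Fosb had 0.911 ± 0.163 FPKM. Fos, the gene for which the class is best known, had only 0.145 ± 0.0755 FPKM (percentile 28.3), and the stress-induced repressor gene Atf3 had 0.0888 ± 0.0790 FPKM (percentile 24.7). Neighbors in this order were compared within libraries on log2(FPKM + 0.1), with a two-sided exact permutation test of the 12 paired differences, adjusted over the 9 neighboring pairs. The order came from the means of the same 12 libraries, so the pairs and their direction were chosen by the values tested. The p-values therefore describe how steady each difference was between libraries and are no independent test of the order. Ier2 and Junb did not differ beyond their spread, with Ier2 higher in 8 of 12 libraries (exact permutation p = 0.173, adjusted p = 0.173). The other 8 pairs passed. Junb exceeded Egr1 in 9 of 12 libraries (adjusted p = 0.0195, exact permutation test), and Fos exceeded Atf3 in 8 of 12 (adjusted p = 0.0308, exact permutation test). For Fos and Atf3 the added 0.1 is close to the level of both genes. Jun was above Zfp36 in 12 of 12 libraries (adjusted p = 0.00110, exact permutation test), by a mean of 0.19 on the log2 scale.

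The AP-1 genes were thus measured mainly as Jund. It made up 83.3% to 87.6% of the summed FPKM of Jun, Junb and Jund in the 12 libraries, and 56.2% to 63.7% of the summed FPKM of all 10 genes. Summed FPKM of Jun, Junb and Jund was 22.5 to 33.6 times that of Fos and Fosb. The ratio was lowest in 12M-3 and highest in 3M-2, so that the ages overlapped.

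Across the ages, 0 of the 10 genes passed the test for a change. The quasi-likelihood test of edgeR was applied to the reads, and p-values were adjusted by Benjamini-Hochberg over every gene and locus tested. A call needed an adjusted p of at most 0.05 and, where 2 ages were compared, at least a doubling or halving (1 on the log2 scale). The slope on age in months was called for 0.171% of 25204 genes and loci and for 0 of the 10 genes, with 1 of them, Fos, at an unadjusted p under 0.05, against 15.4% of all. Any difference between the 4 ages was called for 0.0794% of 25204 and for 0 of the 10, none of which had an unadjusted p under 0.05, against 9.04% of all. Between 3M and 18M, 0.0528% of 24605 were called and 0 of the 10, with Fos again the one at an unadjusted p under 0.05, against 12% of all. For the consecutive steps the called share was 0.0611% from 3M to 6M, 0.0325% from 6M to 12M and 0.0203% from 12M to 18M, with 0 of the 10 genes each time, and Atf3 from 6M to 12M was the one estimate at an unadjusted p under 0.05, where 7.49% of all were (3.94% from 3M to 6M and 3.56% from 12M to 18M). DESeq2 also made no call among these genes, of which it adjusted 10 in the other tests but only 8 for the slope and between 3M and 18M, where it gave no adjusted p for Fos and Atf3 and so could not call them (unadjusted p for Fos 0.0254 and 0.0132). Calls were rare over the whole table, and a count of 0 among 10 genes is what those shares give. From 3M to 18M the estimate was above 0 for 8 of the 10 genes, against 51.4% of all genes and loci, with a median log2 change of 0.11, against 0.01 over all. It was above 0 for 7 of the 10 for the slope, against 50.6% of all. In the consecutive steps it was above 0 for 5, 7 and 5 of the 10, against 50.8%, 49.2% and 49.7% of all. Median size without sign from 3M to 18M was 0.11 for the 10 genes and 0.13 over all. In the consecutive steps it was 0.112, 0.183 and 0.095 for the 10 genes, against 0.091, 0.122 and 0.087 over all.

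Fos, which encodes the AP-1 subunit c-Fos, had the largest estimated change from 3M to 18M of the 10 genes, which did not pass the test. It had 13, 4 and 8 reads in the 3 libraries of 3M. There were 10, 13 and 32 reads at 6M and 29, 24 and 11 at 12M. At 18M there were 30, 20 and 33 reads. As CPM, the reads scaled to a common library size by TMM, the mean was 0.152 ± 0.0897 for 3M and 0.339 ± 0.196 for 6M, then 0.371 ± 0.172 for 12M and 0.456 ± 0.0760 for 18M (SD, n = 3 each). All 3 libraries of 18M lay above all 3 of 3M, while both middle ages overlapped each of the others. Fos was the only one of the 10 genes with no overlap between 3M and 18M, against 9.26% of 25204 genes and loci that were higher at 18M without overlap. Another 10.2% were lower without overlap, and none of the 10 genes was. None of the 10 was free of overlap in a consecutive step either, where the shares higher and lower at the later age were 5.11% and 4.36% from 3M to 6M, 7.54% and 7.36% from 6M to 12M, and 4.6% and 4.42% from 12M to 18M. The estimated change from 3M to 18M was 1.58 on the log2 scale (SE 0.458), or 3.00-fold with a 95% interval of 1.41 to 6.40, and it did not pass the correction (edgeR unadjusted p = 0.0114, adjusted p = 0.353). On log2(FPKM + 0.1), where the added 0.1 is close to the level of Fos itself, the change was 0.86 (limma adjusted p = 0.370). The slope was 0.08 per month on the log2 scale (SE 0.0347, edgeR unadjusted p = 0.0401, adjusted p = 0.303). The whole comparison rested on 25 reads at 3M and 83 at 18M, and coverage of the 5′ exon was above 0 in 5 of the 12 libraries.

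Markers of the cell types of the testis were summed over the same libraries. Leydig cell markers fell for 2 of 7 genes in the slope on age, against 0.171% of all genes and loci called in either direction. The 2 were Cyp11a1 and Cyp17a1, which encode steroid-synthesizing enzymes (edgeR adjusted p = 0.00530 and 0.000125). Hsd3b1, another such enzyme gene, was the 1 of the 7 with a slope above 0 (0.002 per month on the log2 scale, edgeR adjusted p = 0.966). The Leydig list summed to 872 to 1044 CPM at 3M and 550 to 761 CPM at 18M. Macrophage and lymphocyte markers summed to 44.8 to 49.4 CPM at 3M and 38.1 to 46.4 at 18M, with 0 of 7 called, and endothelial markers to 34.0 to 37.03 and 30.5 to 34.5, with 0 of 6 called. Peritubular myoid markers summed to 77.1 to 92.2 CPM at 3M and 60.5 to 81.8 at 18M, with 0 of 5 called. Blood markers summed to 30.7 to 41.0 and 25.2 to 51.0 CPM, with 0 of 4 called. Sertoli cell markers summed to 843 to 858 and 818 to 863 CPM, with 0 of 7 called. Spermatogonium markers summed to 82.8 to 91.5 and 83.5 to 89.1 CPM, with 0 of 5 called. Spermatocyte markers summed to 1901 to 1958 CPM at 3M and 1867 to 1896 at 18M, with 0 of 5 called. Spermatid markers summed to 12400 to 13800 and 12890 to 15420 CPM with 0 of 6 called, so that markers of germ cells were detected in every library, as in testis. Markers of the epididymis and fat summed to 8.15 to 11.6 CPM over all libraries, with Lcn5 at 0 in every library and 0 of 4 called. Most of this sum was Adipoq, with a mean of 8.75 CPM, while Plin1 held 0.305 to 1.0 and Crisp1 0.0572 to 0.337 CPM. The part of these cells in the values of Fos was not tested, and in bulk tissue fewer cells of a type and less RNA per cell cannot be told apart.

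Fosb, the other Fos family gene of the 10, had 3.47 ± 0.466 CPM at 3M and 3.19 ± 0.0549 at 6M, then 4.01 ± 1.16 at 12M and 3.73 ± 0.214 at 18M (SD, n = 3 each). The libraries of 12M held 3.69, 3.05 and 5.29 CPM, and the last of these was the highest of all 12. The other libraries spanned 2.94 to 3.97 CPM, and the ages overlapped. From 3M to 18M the estimate was 1.08-fold, with a 95% interval of 0.869 to 1.33 (edgeR adjusted p = 0.771).

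Reads of Fosb were divided between the transcript with the 140-base segment, NM_008036, and the shorter NM_001347586 without it. NM_001347586 received 66.7%, 48.3% and 71.6% of the Fosb reads at 3M and 57.7%, 91.8% and 63.0% at 6M. It received 42.2%, 58.3% and 51.6% at 12M and 67.5%, 74.8% and 59.9% at 18M. The shorter form was above 50% in 10 of 12 libraries. Means were 62.2 ± 12.3% at 3M and 70.8 ± 18.4% at 6M, then 50.7 ± 8.09% at 12M and 67.4 ± 7.45% at 18M (SD, n = 3 each). The difference of 5.2 percentage points between 18M and 3M was within the spread (two-sided exact permutation p = 0.6, where 0.1 is the smallest that 3 against 3 can give). Behind each share stood 158 to 335 reads, most of which fell in sequence that both transcripts contain and were divided by the assembler's model. The share of 91.8% in 6M-2 rested on 13 reads assigned to the longer transcript.

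**Figure D1:**
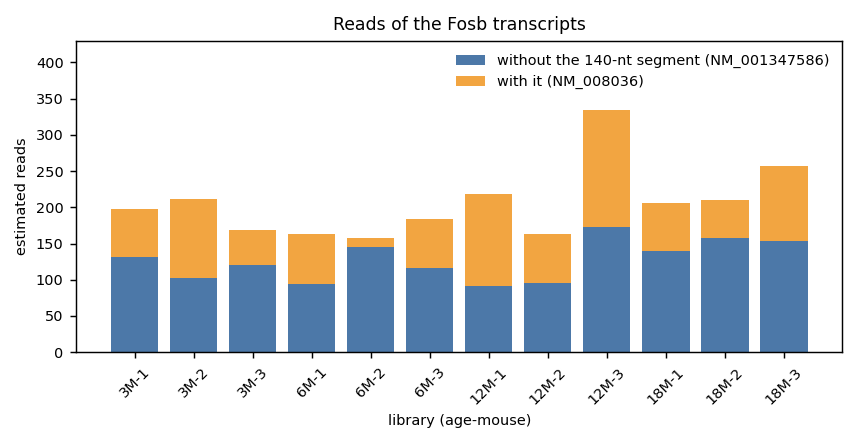
Estimated reads of Fosb in each of the 12 libraries as stacked bars, divided into the transcript without the 140-base segment (blue) and the one with it (orange). The blue part is the larger in 10 of 12 libraries, and 12M-3 has the most reads in all, 335.

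Jund, a Jun family subunit that is expressed widely without stimulation, had the most reads of the 10 genes. The libraries of 3M held 3384, 4858 and 3284 reads, those of 6M 3096, 3148 and 4076, those of 12M 4205, 3840 and 5416, and those of 18M 4399, 3987 and 5672. The means were 69.0 ± 14.6 CPM at 3M and 65.0 ± 5.78 at 6M, then 76.2 ± 8.13 at 12M and 77.3 ± 1.76 at 18M (SD, n = 3 each). At 18M the libraries were close to each other, at 75.4 to 78.9 CPM, and lay inside the range of 57.0 to 85.3 CPM seen at 3M. The 18M level was 1.12-fold that of 3M, with a 95% interval of 0.892 to 1.42 (edgeR adjusted p = 0.649). From 6M to 12M the estimate was 1.17-fold, with an interval of 0.996 to 1.38 (edgeR unadjusted p = 0.0549, adjusted p = 0.680). Another assembled locus on the same strand began 400 bases past the 3′ end of Jund, at chr8:70701016-70717698, with 34550 to 48767 reads, or 6.62 to 14.3 times the CPM of Jund in the same library. GENCODE places Gm11175 on the opposite strand across Jund, and without strand its reads cannot be told apart from those of Jund.

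No change passed the test for Jun and Junb, the other Jun family genes, which partner Fos proteins in AP-1. Jun had 8.48 ± 1.10 CPM at 3M and 7.97 ± 0.726 at 18M (SD, n = 3 each), and its 12 libraries spanned 7.05 to 9.56 CPM. The estimate was 0.942-fold with a 95% interval of 0.765 to 1.16 (edgeR adjusted p = 0.815), where the antisense Junos overlaps Jun and its reads cannot be separated. Junb held 3.36, 3.35 and 2.73 CPM at 3M and 2.40, 2.75 and 3.73 at 6M, then 3.98, 4.15 and 3.16 at 12M and 3.20, 2.74 and 3.02 at 18M. Its 12M libraries included the highest values, but the lowest of them lay inside the range of 18M. The estimate from 12M to 18M was 0.796-fold, with a 95% interval of 0.633 to 1.001 (edgeR unadjusted p = 0.0506, adjusted p = 0.9996), and that from 3M to 18M was 0.952-fold, with an interval of 0.771 to 1.18 (edgeR adjusted p = 0.851).

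Egr1, a zinc finger activator induced through serum response factor, held 3.91, 5.18 and 4.03 CPM at 3M and 4.12, 3.84 and 4.94 at 6M. It held 7.05, 7.16 and 3.81 CPM at 12M and 5.23, 3.92 and 4.82 at 18M. The 12M libraries thus contained both the 2 highest values and the lowest value of the series. The mean at 12M was 6.00 ± 1.90 CPM, against 4.30 ± 0.570 at 6M (SD, n = 3 each), and the estimate of 1.40-fold had a 95% interval of 0.919 to 2.12 (edgeR adjusted p = 0.698). From 3M to 18M it was 1.07-fold, with an interval of 0.818 to 1.39 (edgeR adjusted p = 0.844).

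Atf3, a bZIP gene that stress switches on, was close to the detection limit. It had 11, 0 and 0 reads at 3M and 10, 16 and 35 at 6M, then 4, 6 and 13 at 12M and 10, 14 and 10 at 18M. In the 2 libraries without a read, 3 reads would have been 0.0529 and 0.0518 CPM. That is the limit that a count of 0 allows for counting error if all reads are independent, which reads of a pair are not. The means were 0.0700 ± 0.121 CPM at 3M and 0.376 ± 0.215 at 6M, then 0.128 ± 0.0702 at 12M and 0.194 ± 0.0645 at 18M (SD, n = 3 each). The 6M group was the highest, with its lowest library inside the range of 3M. The estimate from 6M to 12M was -1.53 on the log2 scale (SE 0.594, edgeR unadjusted p = 0.0372, adjusted p = 0.666), or -0.78 on log2(FPKM + 0.1) (limma adjusted p = 0.709). From 3M to 18M the 95% interval of the fold ran from 0.410 to 19.0. Coverage of the 5′ exon was above 0 in a single library, 6M-3, whereas 10 libraries had coverage in the 3′ exon.

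Ier2, a small nuclear protein gene without introns, had 2.64 ± 0.141 CPM at 3M and 2.87 ± 0.219 at 18M, with all 12 libraries between 2.48 and 3.51 CPM. The estimate from 3M to 18M was 1.09-fold, with a 95% interval of 0.907 to 1.31 (edgeR adjusted p = 0.681). Zfp36 had 3.74 ± 0.158 and 3.92 ± 0.205 CPM at the same ages, and its libraries ran from 3.48 to 4.85 CPM. The estimate was 1.05-fold, with an interval of 0.895 to 1.23 (edgeR adjusted p = 0.806), and Gm44710 overlaps Zfp36 on the opposite strand. Dusp1 had 10.9 ± 1.31 CPM at 3M and 12.1 ± 0.927 at 6M, then 12.8 ± 1.27 at 12M and 12.0 ± 0.390 at 18M (SD, n = 3 each). Its 12 libraries spanned 9.88 to 14.2 CPM, and the estimate from 3M to 18M was 1.10-fold, with an interval of 0.926 to 1.31 (edgeR adjusted p = 0.616). An assembled transcript on the opposite strand began 99 bases from the start of Dusp1, at chr17:26508571-26509190, and held 83 to 164 reads, or 0.120 to 0.217 of the CPM of Dusp1. For the 8 genes other than Fos and Atf3, the 95% intervals of the change from 3M to 18M all lay between 0.765-fold and 1.42-fold.

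**Figure D2:**
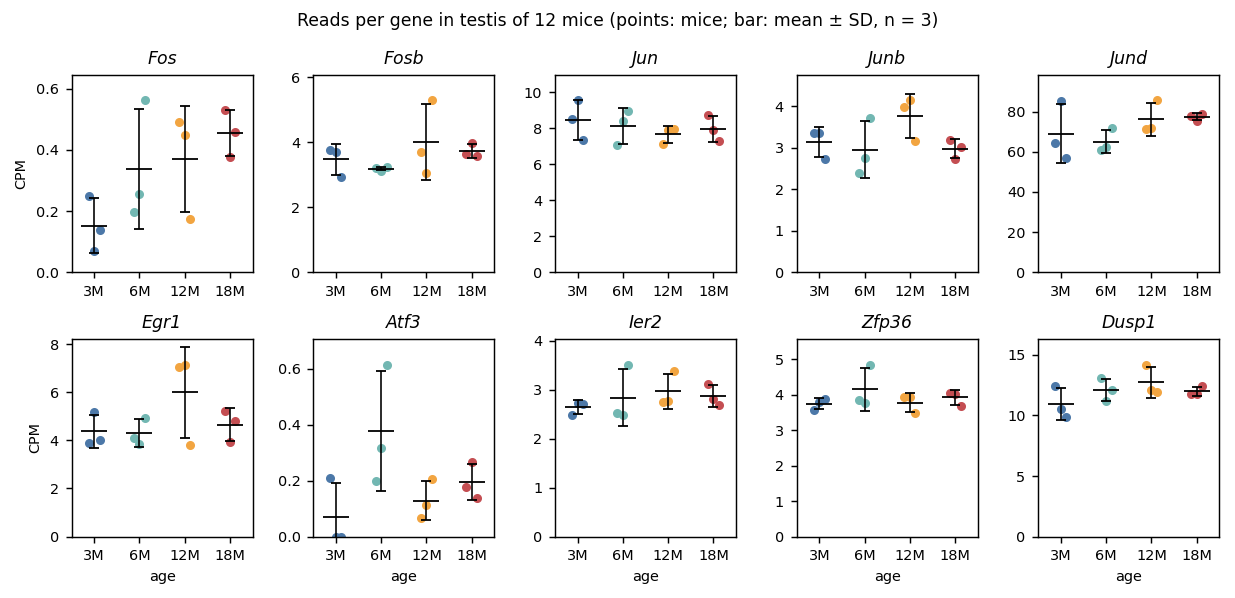
CPM (linear axis from 0) of each of the 10 genes by age, in a panel per gene, with a point for each mouse and bars for the mean ± SD of 3 mice. The 3 libraries of 18M lie above those of 3M for Fos only, and the 12M points of Egr1 lie at 7.05, 7.16 and 3.81 CPM.

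**Figure D3:**
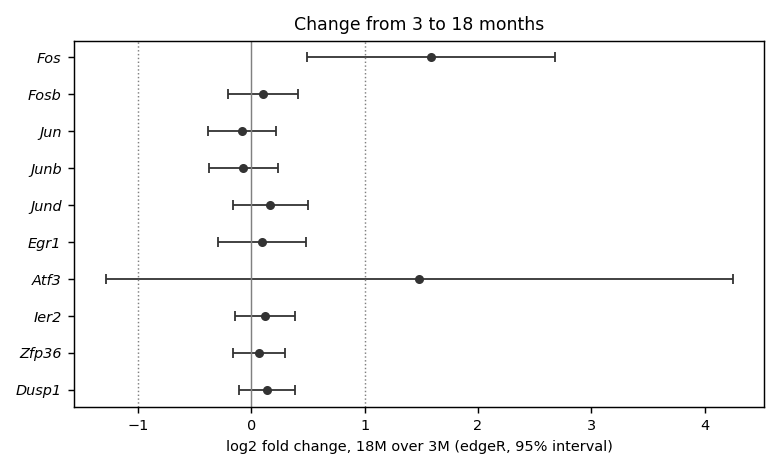
Log2 fold change of 18M over 3M for each of the 10 genes, with its 95% interval from edgeR and dotted lines at the threshold of 1 in either direction. The interval lies above 0 for Fos, at 0.49 to 2.68 before correction for multiple tests, and includes 0 for the other 9 genes.

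The spread between mice of an age was largest for the genes with the fewest reads. The coefficient of variation (CV) of CPM within ages was lowest for Dusp1 (8.72%) and Zfp36 (9.09%) and highest for Fos (43.4%) and Atf3 (68.9%). With every estimated read taken as independent, counting error alone would give about 23.0% for Fos and 30.5% for Atf3 at their mean reads. For Jund it would give 1.56%, against a CV of 12.4%, and for Egr1 6.03%, against 22.9%. The libraries were read as pairs, and reads of a pair are not independent, so counting error can be larger than these values. Features were divided into 10 classes by mean CPM, and the CV of each gene was placed within its class. Egr1 was at percentile 89.7, Jund at 86.2, Atf3 at 85.3 and Fosb at 82.3 of their classes, whereas Zfp36 was at 19.0 and Ier2 at 34.5. Fos was at percentile 55.0, close to the class median of 41.5%. The biological coefficient of variation that edgeR estimated was below its trend with level for 9 of the 10 genes and above it for Atf3 (73.1% against 45.3%). Egr1 was at 22.3% against 28.3%, Jund at 13.3% against 16.0% and Fosb at 18.1% against 28.2%. The share of all genes and loci below that trend was not computed, so the count of 9 has no background and marks no trait of these genes. The median CV of the 10 genes was 14.02%, against 12.2% over all 25204 genes and loci. Ratios of the highest to the lowest library were 1.36 for Jun, 1.88 for Egr1 and 8.01 for Fos. Atf3 has no such ratio because its lowest libraries were at 0.

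**Figure D4:**
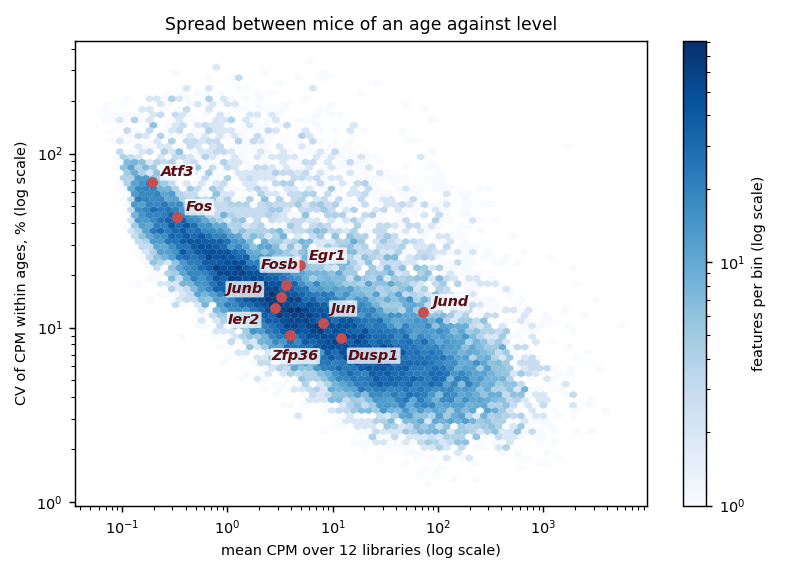
Coefficient of variation of CPM within ages, in percent, against mean CPM over 12 libraries (both log scales), with all 25204 genes and loci as shaded bins and the 10 genes as points. Fos, Jun, Junb, Ier2, Zfp36 and Dusp1 lie within the main cloud, while Egr1, Jund, Fosb and Atf3 are at percentile 82.3 or higher of their level class.

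Extreme values of several genes fell in the same libraries. 6M-3 was the highest of 12 for Fos, Atf3, Ier2 and Zfp36, and its mean rank over the 10 genes was 9.5 of 12. It was also the highest for the summed Leydig cell markers, at 1322 CPM against 550 to 1044 in the other libraries, and for the summed Sertoli cell markers, at 1094 CPM against 817 to 864. Single markers did not all follow these sums. In 6M-3, Cyp11a1 had 52.4 CPM, below the 59.7 to 82.7 CPM of the 3M libraries. Cyp17a1 had 134.5 CPM there, against 187.8 in 3M-2. 3M-3 was the lowest for Fosb, Jund and Dusp1, with a mean rank of 2.95. 12M-3 was the highest for Fosb and Jund and the lowest for Egr1 and Zfp36, and was the highest for summed spermatid markers, at 17190 CPM against 11520 to 15420. Of single spermatid markers, Spaca1 had 168.8 CPM in 12M-3, inside its range of 139.3 to 188.3. Acrv1 had 231.7 CPM there, close to its highest value of 233.5. The part of these markers in the values of the 10 genes was not tested. Leaving out any of these libraries left 0 of the 10 genes called.

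To see whether libraries high for Fos were high for the other genes, log2(CPM + 1) was correlated over the 12 libraries, with 100000 permutations and adjustment over the 9 pairs. The highest r was with Zfp36, at 0.58 (permutation p = 0.0311, adjusted p = 0.248) and a Spearman rho of 0.62 (permutation p = 0.0348, adjusted p = 0.313). Without 3M-2 and 6M-3, the libraries farthest from the median of Fos, r was 0.53, and within ages it was 0.71 (exact permutation p = 0.0872). Junb had an r of 0.48 with Fos over all libraries and 0.85 within ages (exact permutation p = 0.0262, adjusted p = 0.236). The r with Dusp1 was 0.55 and with Egr1 0.53, and that with Atf3 was 0.45 but -0.06 without 3M-2 and 6M-3. With Jun it was -0.08 and with Fosb -0.15. None of the 9 pairs passed the adjustment, and 1 had an unadjusted p under 0.05. Over all 45 pairs of the 10 genes, r ran from -0.43 to 0.80 with a median of 0.27, and was above 0 in 35 pairs. The highest was between Junb and Egr1, at 0.80 (permutation p = 0.00168, adjusted over 45 pairs p = 0.0756) with a rho of 0.59 (permutation p = 0.0486, adjusted p = 0.457). Without 12M-2 and 6M-1 this r was 0.75, and within ages it was 0.73 (exact permutation p = 0.0201). Fosb and Jund had an r of 0.69 (permutation p = 0.00921, adjusted p = 0.207), which was 0.48 without 12M-3 and 3M-3. All values of a library share its depth and its cell makeup.

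**Figure D5:**
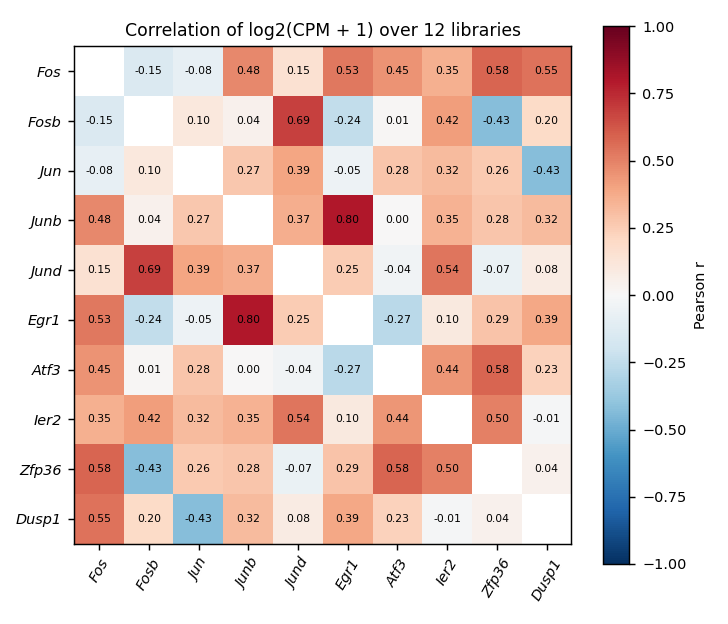
Pearson r of log2(CPM + 1) over the 12 libraries for the 45 pairs of the 10 genes. The highest r is 0.80, between Junb and Egr1, and Jun and Fosb have r near or below 0 with Fos.

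Among 15330 genes with a mean of 1 CPM or more, those most like Fos over the 12 libraries were Creg1 (r = 0.90), Mmadhc (r = 0.90), Poln (r = 0.89), Col4a3bp (r = 0.89) and Lpar1 (r = 0.88). These are the highest of many r values and carry no test. Mean CPM of each of these genes was higher at 18M than at 3M, from 38.8 at 3M to 43.7 at 18M for Creg1 and from 34.7 to 40.0 for Lpar1. They were picked for likeness to Fos, so this shared direction is no separate result.

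Other genes of the response were counted in lists, for which the background over all 25204 genes and loci was 15.4% at an unadjusted p under 0.05 for the slope on age and 50.6% with a slope above 0. Of 36 other immediate early genes, 0 were called in any of the 6 tests by edgeR, 4 had an unadjusted p under 0.05 for the slope on age, and 17 had a slope above 0. Genes at an unadjusted p under 0.05 are named here from each list, after their values were seen. Of the 4, Egr3 (0.02 per month on the log2 scale, edgeR adjusted p = 0.103), Klf2 and Btg1 had slopes above 0 and Ctgf one below. Ctgf, which encodes a secreted matrix-associated protein, had 18.8 ± 2.21 CPM at 3M and 13.0 ± 3.25 at 18M (SD, n = 3 each), with a slope of -0.04 per month on the log2 scale (edgeR unadjusted p = 0.00273, adjusted p = 0.153). Egr4, a relative of Egr1, had 0.566 ± 0.310 and 0.262 ± 0.227 CPM (edgeR adjusted p of the slope = 0.517). Of 31 genes of the upstream MAP kinase and serum response factor pathway, 0 were called in any test by edgeR, 5 had an unadjusted p under 0.05 for the slope, and 11 had a slope above 0. Of the 5, Map2k3 had a slope above 0 and Elk1, Rps6ka2, Rps6ka3 and Mapkapk2 had slopes below. Elk1, a partner of serum response factor, had 2.65 ± 0.110 CPM at 3M and 1.99 ± 0.194 at 18M (edgeR unadjusted p of the slope = 0.00387, adjusted p = 0.169), and its relative Elk4 had 2.95 ± 0.437 and 2.41 ± 0.273 CPM (edgeR adjusted p = 0.347). Of 12 relatives of Zfp36 and Dusp1, 0 were called in any test by edgeR, 2 had an unadjusted p under 0.05 for the slope, and 6 had a slope above 0. The 2 were Dusp10, with a slope above 0, and Zfp36l2, with a slope below. Zfp36l2, a further mRNA decay factor, varied from 0.725 to 12.1 CPM between libraries (edgeR adjusted p of the slope = 0.233), and Dusp8, a phosphatase of stress kinases, had 0.467 ± 0.108 CPM at 3M and 0.290 ± 0.146 at 18M (edgeR adjusted p of the slope = 0.338).

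Of 19 further AP-1 and bZIP genes, 0 were called for the slope by edgeR, 5 had an unadjusted p under 0.05, and 10 had a slope above 0. Batf and Crem were among these with slopes above 0, and Fosl2 and Atf7 with slopes below. Batf had 0.506 ± 0.215 CPM at 3M and 0.913 ± 0.344 at 18M (edgeR adjusted p of the slope = 0.234), and Atf4 held 9.98 CPM in 6M-3 and 0.0278 to 1.16 CPM in the other libraries (edgeR adjusted p = 0.402). The lowest Atf4 value, in 18M-3, was under the 0.0418 CPM that 3 reads make in that library. Whether reads of Atf4 were assigned to other assembled rows was not tested. Ddit3, which encodes the stress factor CHOP, was the one gene of the list called in any test, and only from 12M to 18M, where it was higher at 18M. It had 21.0, 21.4 and 23.0 CPM at 12M and 52.3, 53.3 and 55.6 at 18M, a change of 1.3035 on the log2 scale (SE 0.0627, edgeR adjusted p = 0.00219). The libraries of 3M, however, held 56.4, 50.9 and 20.9 CPM and those of 6M 21.1, 22.9 and 47.7. All 12 libraries therefore lay near one of the same levels, 20.9 to 23.0 or 47.7 to 56.4 CPM, and both levels occurred among mice of 3M and of 6M. Most of the difference was in the reads assigned to 1 transcript, NM_007837, with 604 to 856 reads in the lower libraries and 2097 to 3709 in the higher ones. The assembler divided the reads of this locus among overlapping transcripts, and the part of that division in these levels was not tested, so that a change in mRNA and a change in how reads were divided cannot be told apart here. The call was kept under 10 of 13 alternatives, and the log2 change ran from 1.27 to 1.71 over all 13. It was lost with the mouse number as a block (adjusted p = 0.0503), with all 12 libraries in the edgeR fit (adjusted p = 0.9998) and with only exactly matching transcripts summed (adjusted p = 0.131).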

How the data were processed

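Total RNA had been made into libraries with the TruSeq v2 kit after Ribo-Zero depletion and read as pairs on an Illumina HiSeq instrument. Per the study's methods and the submitters' processing notes, the authors used HISAT2 (version not given in the sources used here) on mm10 and StringTie 1.3.3b to assemble, merge and re-estimate transcripts. The deposited read numbers are estimated counts, already whole, derived from coverage and length, and were used as they stood. The deposited FPKM values are scaled by length and depth, without normalization between libraries by the authors. Exon coverage came from the deposited assemblies.

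Reads were summed per symbol over classes =, c, j and o, and other rows, with 5.31% of the reads, by locus (31513 features). Counts were fitted with edgeR 4.0.16 in R 4.3.3 (TMM, filterByExpr with a minimum count of 10), from the libraries of the ages compared or all 12 for the slope and any difference; all 10 genes passed the filter. Alternatives were DESeq2 1.42.0, limma 3.58.1 on log2(FPKM + 0.1), other size factors, filters, rows and libraries, a replicate block, and each library left out. Python 3.11.15 with scipy 1.17.1 served the rest. The test was tried on simulated data. Intervals are 95%, and floors of 3 reads cover counting error only, with each read taken as independent. Named were the 10 genes, list genes called in a test or among the 2 with the largest slope, and the 5 genes most like Fos. The members and lists were chosen with earlier results of these data known.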

Additional observations from a re-analysis of the deposited data

How the results depend on the processing

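None of the 10 genes was called in any of 88 refits, whose smallest adjusted p for one of them was 0.191; DESeq2 gave no adjusted p for Fos and Atf3 in the slope and between 3M and 18M, so no call was possible for them there. Of 700 estimates for these genes under the alternatives, 47 changed sign, none of them called. The Fos change from 3M to 18M ran from 0.86 to 1.66 on the log2 scale over the alternatives (adjusted p 0.349 to 0.607), and from 1.24 without 3M-2 to 2.10 without 3M-1 (adjusted p 0.294 to 0.678 over the libraries left out). Counts over all features moved more, and the cause was not tested. DESeq2 called 559 features for the slope against 43 with edgeR, 379 against 20 for any difference, 52 against 13 from 3M to 18M, 53 against 15 from 3M to 6M, 55 against 8 from 6M to 12M and 28 against 5 from 12M to 18M. Mouse numbers shared between ages did not pair the libraries, since 18 same-number correlations of deviations were -0.07 to 0.07. With the replicate block 22 features were called for the slope, 0 from 3M to 18M (1972 at an unadjusted p under 0.05), 2 from 3M to 6M, 2 from 6M to 12M and 1 from 12M to 18M. Summing only exactly matching transcripts gave 9 for the slope, 39 from 3M to 18M and 17 from 6M to 12M. limma on log2(FPKM + 0.1) gave 19 from 6M to 12M and 12 from 12M to 18M. All 12 libraries in the fit gave 21 from 3M to 18M, 4 from 3M to 6M and 1 from 12M to 18M. Leaving out 1 library gave 13 (without 18M-3) to 116 (without 18M-1) for the slope, 15 to 44 for any difference, 15 to 30 from 3M to 18M, 17 to 35 from 3M to 6M, 9 to 22 from 6M to 12M and 7 to 20 from 12M to 18M. The median within-age SD of the 10 genes was 0.15 on log2(CPM + 1) and 0.20 on log2(FPKM + 0.1). Depth limits Fos and Atf3, at 4 to 33 and 0 to 35 reads a library.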
